A study of Mus musculus with 6 samples.

Results

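The clustered protocadherins are cell-surface adhesion proteins of the cadherin superfamily, encoded by the alpha, beta and gamma gene clusters that lie one after the other on mouse chromosome 18. Members were taken by symbol, as each gene whose name begins with Pcdha, Pcdhb or Pcdhga, Pcdhgb or Pcdhgc and goes on with its number (or, for alpha, with c), and no filter on low values was applied. This gave 42 of the 25416 genes with a value, of which 2 were alpha, 21 beta and 19 gamma genes. RNA came from AML12, a hepatocyte line whose founder mouse carried human TGF alpha as a transgene, which both groups therefore share. The cells of the siSetdb1 group (3 samples) were transfected with an siRNA against Setdb1, and those of the siNC group (3 samples) with a scrambled RNA, each for 72 h. Setdb1 encodes a methyltransferase that places repressive methyl groups on lysine 9 of histone H3, and the comparison asks which transcripts differ once its mRNA is reduced. All samples are of 1 cell line, and no label says whether the samples of a group were separate cultures. The p-values are therefore measured against the spread from sample to sample, and that spread may be technical.

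In neurons, each cell uses a small, largely random choice of clustered protocadherin promoters, and the resulting mix of proteins, which bind to their own kind on other cells, marks the cell surface. The alpha and gamma genes each consist of a variable first exon that is spliced to constant exons held in common by the whole cluster, whereas the beta genes are single-exon genes with no such shared end. In mouse forebrain neurons SETDB1 is known to keep chromatin at these clusters compact and repressed. CTCF binds promoters of these clusters, and silent promoters are methylated at CpG sites. The C-type genes at the end of the alpha and gamma clusters are known in mouse neurons for constitutive rather than random use. In liver cells the family has no well-established role.

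Setdb1 itself had 4.29, 4.21 and 3.29 FPKM (reads scaled to exon length and sequencing depth) in siSetdb1 and 8.41, 8.54 and 9.43 FPKM in siNC, with a log2 fold change of -1.0 (SE 0.10, limma adjusted p = 0.00183). The siSetdb1 libraries held 17073231 to 17835060 reads and the siNC libraries 16790582 to 17401848. The siNC library of replicate 1 stood apart on the first principal component (54.8% of the variance), at 26.7 against 11.7 and 10.8 for the other siNC libraries, and the main results for members are also given without it. Of the hepatocyte markers, Hnf4a had 27.1 to 32.3 FPKM in siSetdb1 and 30.2 to 38.2 in siNC, and Alb had 1.45 to 4.5 and 4.05 to 14.3 FPKM, while Ahsg, Fga and Cps1 averaged under 0.1 FPKM. The 9 hepatocyte markers with a value summed to 46.6 to 71.1 FPKM in siSetdb1 and 89.7 to 138 FPKM in siNC, and their part in the results below was not tested. The cholangiocyte marker Krt19 was high in both groups, at 1264 to 1431 FPKM in siSetdb1 and 1204 to 1444 in siNC. Of 13 neuron markers, 10 had a value, none had the 0.5 FPKM in at least 3 libraries that testing required, and they summed to 0.972 to 1.04 FPKM in siSetdb1 and 0.815 to 1.04 in siNC.

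The 3 clusters differed widely in level. The beta cluster (37294812 to 37524479 of mm10, plus strand) took 75.6% of the 7551 reads that all members received over the 6 libraries, and the gamma cluster (37661793 to 37841873) took 24.4%. The alpha cluster (36930184 to 37187661) received 3 reads in all. Of the 21 beta genes, 19 had at least 1 read in each library, 7 averaged at least 0.5 FPKM, 8 lay between 0.1 and 0.5 FPKM and 6 below 0.1 FPKM. Of the 19 gamma genes, 6 had reads in each library, 1 averaged at least 0.5 FPKM, 1 lay between 0.1 and 0.5 FPKM and 17 lay below 0.1 FPKM. The median of the mean level was 0.22 FPKM over beta genes, 0.0143 FPKM over gamma genes and 0.00269 FPKM over the alpha genes. GENCODE M21 lists 57 members by symbol. The other 15 (11 alpha, 1 beta and 3 gamma genes, among them Pcdhac1 and Pcdhac2) had no value under these symbols and were not analysed. Each gene with a value was above 0 in at least 1 library, so these counts and medians leave out members without a value. For alpha they rest on 2 of 13 listed genes.

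**Figure D1:**
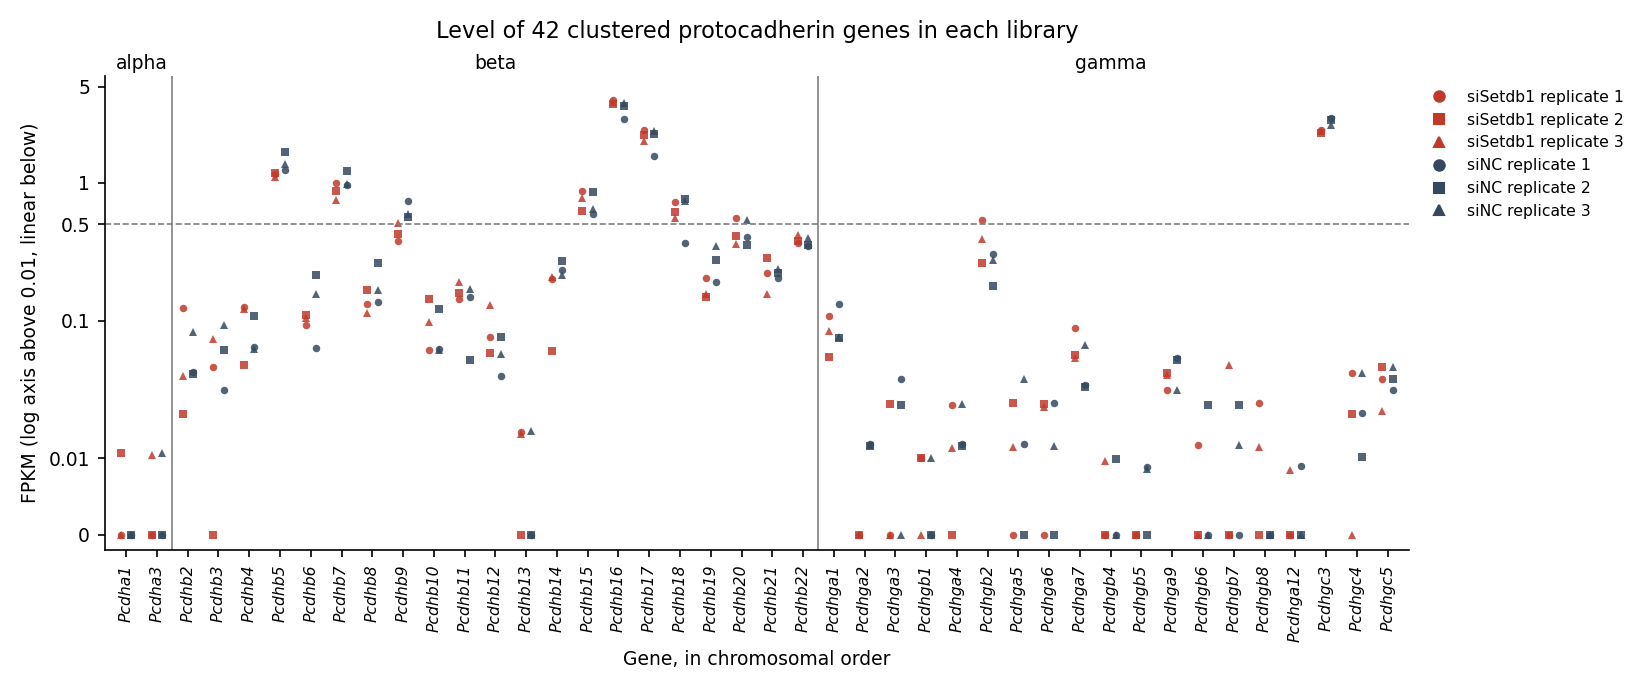
FPKM of each of the 42 members in the 6 libraries, with genes in chromosomal order, siSetdb1 in red left of siNC in dark blue, and a dashed line at 0.5 FPKM. The axis is logarithmic above 0.01 FPKM and linear below. Pcdhb5, Pcdhb7, Pcdhb15 to Pcdhb18 and Pcdhgc3 lie around or above the line in most libraries of both groups, and most gamma genes lie below 0.1 FPKM.

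The level of a member depends in part on how reads in shared sequence were treated, which is not given in the sources used here. Exon bases held in common with other members make up 27.8% to 66.8% of each gamma gene and 53.5% to 53.6% of Pcdha1 and Pcdha3. They come to 2116 or 2119 bases in each gamma gene other than Pcdhgb1, Pcdhga4 and Pcdhgb4, where they come to 3154, 3157 and 2224 bases. Among beta genes exon bases are shared between members only for the neighbours Pcdhb21 and Pcdhb22, which overlap by 455 bases. Counted in windows of 50 bases, the length of the reads, between 1.8% and 64.2% of a beta gene's transcript sequence (median 5.2%) also occurs in a transcript of another gene, against 35.5% to 65.3% (median 45.0%) for gamma genes. The beta gene at the top of the beta range is Pcdhb12, which overlaps another annotated gene along 1927 bases. Pcdhgc3 lies near the top of the gamma range, at 65.2% (37.7% for windows found in other members). Pcdhgc3 holds constant exons in common with Pcdhga2, which had 0 reads in each siSetdb1 library while Pcdhgc3 had 216 to 234, so reads of the constant exons cannot have been credited to each gene that holds them. Levels of alpha and gamma genes relative to beta genes carry this uncertainty, since the length by which FPKM divides includes the constant exons.

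No member changed by the test over all genes. Of the 42 members, 8 reached 0.5 FPKM in at least 3 libraries and were tested (7 beta genes and Pcdhgc3), and 0 of the 8 passed at an adjusted p of 0.05 in limma, where 15.1% of all 12846 genes tested passed (6.87% higher and 8.27% lower in siSetdb1). Without siNC replicate 1 it was again 0 of 8, against 16.9% of all genes. At an unadjusted p under 0.05, 1 of the 8 was found, Pcdhgc3, against 32.2% of all genes tested. With limma-voom on recovered reads 0 of the 8 passed (17.9% of all genes), and 1 had an unadjusted p under 0.05, again Pcdhgc3 (32.9% of all genes). With no filter, all 42 members were tested and 0 passed (3.5% of all genes), with a smallest adjusted p of 0.243 for a member. In bulk RNA a change in the number of expressing cells and a change in RNA per cell cannot be told apart.

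**Figure D2:**
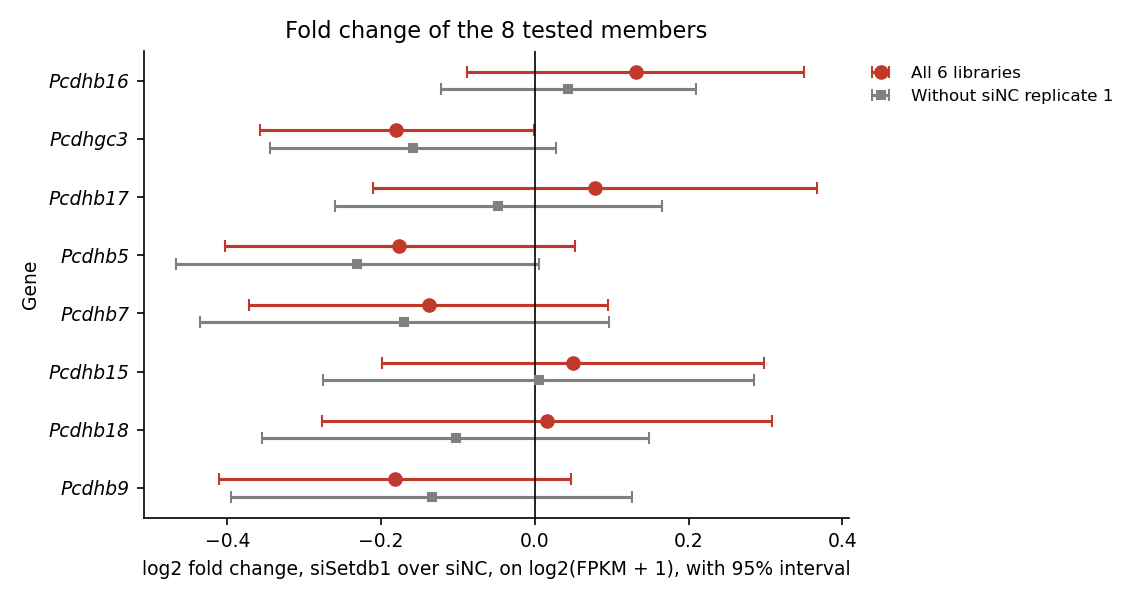
Log2 fold change (siSetdb1 over siNC, computed on log2(FPKM + 1)) with its 95% interval for the 8 tested members, ordered by level, with all 6 libraries (red) and without siNC replicate 1 (grey). With all libraries 4 members lie above 0 and 4 below, the interval of Pcdhgc3 just misses 0 before adjustment, and Pcdhb17 and Pcdhb18 change side without siNC replicate 1.

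Pcdhb16 (ENSMUSG00000047910, 37477814 to 37483038) was the most abundant member. It had 3.97, 3.73 and 3.84 FPKM in siSetdb1 and 2.92, 3.62 and 3.79 FPKM in siNC, from 333 to 358 reads per siSetdb1 library and 256 to 340 reads per siNC library. The groups overlapped, with siNC replicate 1 the lowest library. The log2 fold change was 0.13 (95% interval -0.09 to 0.35, limma adjusted p = 0.375), and without siNC replicate 1 it was 0.04 (adjusted p = 0.717).

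Pcdhb17 (ENSMUSG00000046387, 37484795 to 37489454), the next gene along the chromosome, had 2.42, 2.22 and 2.02 FPKM in siSetdb1 and 1.56, 2.26 and 2.40 FPKM in siNC. Its log2 fold change of 0.08 (interval -0.21 to 0.37, limma adjusted p = 0.698) was -0.05 without siNC replicate 1. Pcdhb18 (ENSMUSG00000048347, 37489465 to 37494505) had 0.723, 0.616 and 0.556 FPKM in siSetdb1 and 0.366, 0.764 and 0.739 FPKM in siNC, with a log2 fold change of 0.02 that was -0.10 without siNC replicate 1. In both genes siNC replicate 1 was the lowest of the 6 libraries. The other libraries of the groups overlapped for Pcdhb17, while for Pcdhb18 siNC replicates 2 and 3 were above each siSetdb1 library.

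Pcdhb15 (ENSMUSG00000047033, 37473540 to 37476340), which precedes Pcdhb16, had 0.868, 0.627 and 0.781 FPKM in siSetdb1 and 0.595, 0.862 and 0.644 FPKM in siNC. Its groups overlapped (log2 fold change 0.05, interval -0.20 to 0.30, limma adjusted p = 0.783), and without siNC replicate 1 the log2 fold change was 0.005. The 4 adjacent genes Pcdhb15 to Pcdhb18 together took 47.0% of the reads of all members. Their summed level was 7.98, 7.2 and 7.2 FPKM in siSetdb1 and 5.44, 7.5 and 7.57 FPKM in siNC. Only siNC replicate 1 stood below the rest.

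The other tested beta genes, Pcdhb5, Pcdhb7 and Pcdhb9, had lower means in siSetdb1. Pcdhb5 (ENSMUSG00000063687, 37320381 to 37323915) had 1.16, 1.18 and 1.11 FPKM in siSetdb1 and 1.25, 1.69 and 1.37 FPKM in siNC, from 70 or 71 reads per siSetdb1 library and 74 to 104 reads per siNC library. The groups did not overlap, and the log2 fold change was -0.18 (interval -0.40 to 0.05, limma adjusted p = 0.259). Pcdhb9 (ENSMUSG00000051242, 37400855 to 37403909) had 0.379, 0.422 and 0.514 FPKM in siSetdb1 and 0.741, 0.564 and 0.591 FPKM in siNC, again without overlap, with a log2 fold change of -0.18 (interval -0.41 to 0.05, adjusted p = 0.248). Pcdhb9 rested on 20 to 28 reads per siSetdb1 library and 30 to 38 per siNC library. Pcdhb7 (ENSMUSG00000045062, 37341702 to 37345202) had 0.992, 0.87 and 0.753 FPKM in siSetdb1 and 0.97, 1.23 and 0.981 FPKM in siNC, and its groups overlapped (log2 fold change -0.14, adjusted p = 0.38). Without siNC replicate 1 the log2 fold change was -0.23 for Pcdhb5, -0.13 for Pcdhb9 and -0.17 for Pcdhb7.

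Pcdhgc3 (ENSMUSG00000102918, 37806364 to 37841873), a C-type gene whose protein is known in mouse to bind Axin1 and dampen Wnt signalling, was the only gamma gene tested. It had 2.43, 2.30 and 2.39 FPKM in siSetdb1 and 2.94, 2.88 and 2.65 FPKM in siNC. Each siSetdb1 library was below each siNC library, and the means were 2.37 ± 0.07 FPKM in siSetdb1 and 2.82 ± 0.15 FPKM in siNC (SD, n = 3 each), a ratio of 0.841. The log2 fold change was -0.18 (interval -0.36 to -0.001, unadjusted p = 0.0486 in limma), and it did not pass after adjustment (adjusted p = 0.152, and 0.124 to 0.338 over the alternatives). On the scale of recovered reads, which does not compress low values, the limma-voom log2 fold change was -0.25 (interval -0.48 to -0.02, adjusted p = 0.124). Without siNC replicate 1 its log2 fold change was -0.16 (interval -0.34 to 0.03, adjusted p = 0.216). The start of the gene overlaps the antisense transcript BC037039, and since no strand-marking step is named in the protocol, reads of both transcripts cannot be told apart there.

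The intervals set what these libraries could show. Limma-voom log2 fold changes, on a scale that does not compress low values, were 0.17 for Pcdhb16, 0.12 for Pcdhb17 and -0.31 for Pcdhb5. They were -0.28 for Pcdhb7, -0.52 for Pcdhb9, 0.12 for Pcdhb15 and 0.08 for Pcdhb18. On recovered reads the 95% interval of the log2 fold change was -0.09 to 0.43 for Pcdhb16, -0.25 to 0.49 for Pcdhb17, -0.68 to 0.07 for Pcdhb5, -0.71 to 0.14 for Pcdhb7 and -1.06 to 0.03 for Pcdhb9 (limma-voom). It was -0.41 to 0.64 for Pcdhb15 and -0.54 to 0.69 for Pcdhb18. For each of the 8 tested members a log2 fold change of 1 lay outside this interval, and one of -1 lay outside it for each of them other than Pcdhb9.

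In order of mean level the tested members ran Pcdhb16 (3.64 FPKM), Pcdhgc3 (2.60), Pcdhb17 (2.15), Pcdhb5 (1.29), Pcdhb7 (0.966), Pcdhb15 (0.73), Pcdhb18 (0.627) and Pcdhb9 (0.535). For each pair of neighbours in this order the ranges over the 6 libraries overlapped. Within libraries, Pcdhgc3 was above Pcdhb17, Pcdhb17 above Pcdhb5 and Pcdhb5 above Pcdhb7 in 6 of 6, and the other neighbours kept their order in 5 of 6.

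Summed over each cluster, the levels of the groups overlapped for both beta and gamma. The 21 beta genes summed to 12.9, 11.7 and 11.8 FPKM in siSetdb1 and 10.4, 13.4 and 13.1 FPKM in siNC, with means of 12.1 ± 0.7 and 12.3 ± 1.7 FPKM (SD, n = 3 each). The ratio of siSetdb1 to siNC was 0.984, and it was 0.913 without siNC replicate 1, which had the lowest beta sum of the 6 libraries. The 19 gamma genes summed to 3.34, 2.87 and 3.1 FPKM in siSetdb1 and 3.63, 3.38 and 3.3 FPKM in siNC, with siSetdb1 replicate 1 between the siNC libraries. The ratio was 0.904, and 0.93 without siNC replicate 1. Without Pcdhgc3 the other 18 gamma genes summed to 0.913, 0.568 and 0.715 FPKM in siSetdb1 and 0.697, 0.492 and 0.654 FPKM in siNC, from 45 to 81 reads per library. The ratio of the gamma sums without Pcdhgc3 was 1.19, so the gamma sum took its direction from Pcdhgc3. The alpha genes received 2 reads in siSetdb1 and 1 read in siNC, too few for a comparison. No p is attached to these sums, since they are totals over chosen genes, and whether the clusters differ in their response was not tested.

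**Figure D3:**
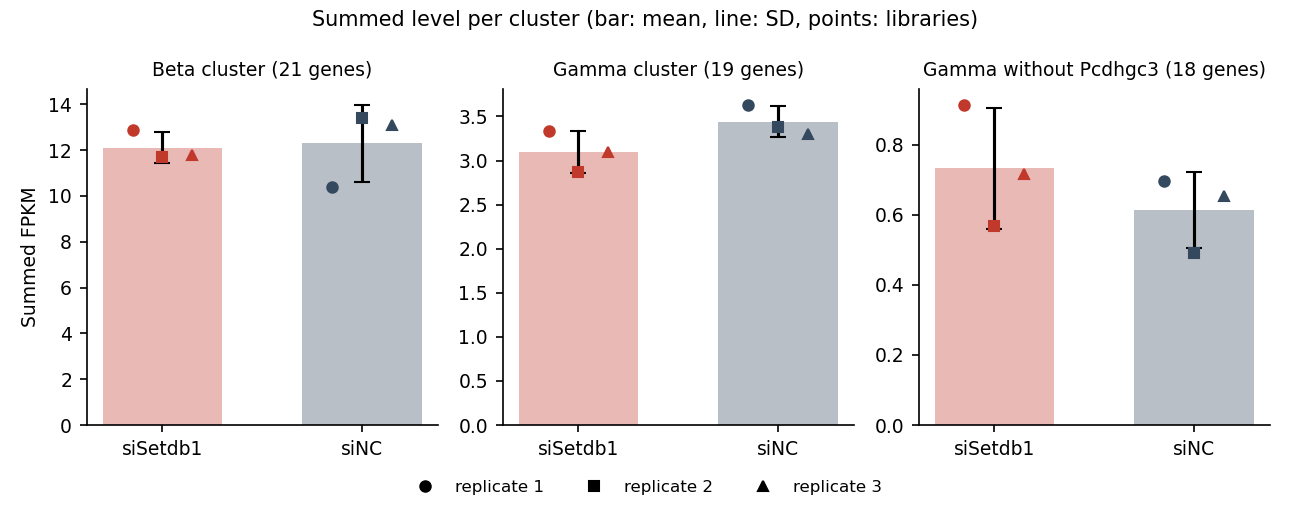
Summed FPKM of the beta genes, the gamma genes and the gamma genes without Pcdhgc3 in siSetdb1 (red, left) and siNC (dark blue, right). Bars are means, lines the SD and points the 3 libraries of a group, with a marker shape for each replicate number. The siNC library of replicate 1 has the lowest beta sum (10.4 FPKM) and the highest gamma sum (3.63 FPKM).

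The position of siNC replicate 1 differed between the clusters. It was below both other siNC libraries in 12 of the 19 beta genes with reads in each library (63.2%), and in 6 of the 8 tested members (75.0%), against 36.7% of all genes tested. In the gamma sum it was the highest. The beta transcripts had a GC content of 39.1% to 49.0% (median 45.6%), the gamma transcripts 51.0% to 55.4% (median 53.1%) and all tested genes a median of 49.4%. Across all tested genes the log2 fold change had a Spearman correlation of -0.27 with GC content, as a description over genes that are not independent replicates. With trends in GC content and exon length removed from each library, the median log2 fold change of the 7 tested beta genes was -0.07, against 0.02 as deposited and -0.10 without siNC replicate 1. The part of GC content in these differences was not tested.

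Among the 34 members below the filter, no group difference passed with the filter removed. Pcdhb20 stood just outside it, with 0.553, 0.411 and 0.362 FPKM in siSetdb1 and 0.402, 0.355 and 0.54 FPKM in siNC. Pcdhgb2, the most abundant gamma gene after Pcdhgc3, had 0.534, 0.264 and 0.39 FPKM in siSetdb1 and 0.305, 0.177 and 0.274 FPKM in siNC. The groups of Pcdhgb2 overlapped (101 reads in siSetdb1 and 63 in siNC), and with no filter its limma adjusted p was 0.463. Pcdhga1, Pcdhga7 and Pcdhga9, which follow it in level, had 23, 18 and 11 reads in siSetdb1 and 26, 12 and 13 reads in siNC. The C-type genes Pcdhgc4, needed in mouse for the survival of cortical interneurons, and Pcdhgc5, known from inhibitory synapses, had 6 and 14 reads in siSetdb1 and 7 and 15 reads in siNC. Pcdha1 had 1 and 0 reads and Pcdha3 had 1 and 1. Of the 14 beta genes below the filter, 13 had overlapping groups, and their mean over the 6 libraries ran from 0.00773 FPKM for Pcdhb13 to 0.437 FPKM for Pcdhb20. Pcdhb22 averaged 0.388 FPKM in siSetdb1 and 0.368 FPKM in siNC, and Pcdhb19 averaged 0.169 and 0.272 FPKM (adjusted p = 0.436 with no filter, limma). Counted over all members, 15 had fewer than 10 reads in the 6 libraries together, of which 12 were gamma genes.

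The groups did not overlap for a few members, and over all 42 the count with siSetdb1 lower was near the share of all genes. In 5 of 42 members (Pcdhb5, Pcdhb9, Pcdhb14, Pcdhga2 and Pcdhgc3) each siSetdb1 library was below each siNC library, against 13.9% of all genes in the table, and in 0 of 42 it was above, against 10.9%; this is a count over libraries with no test. Of the 8 tested members 3 were below, against 21.6% of all genes tested, and 0 above, against 17.6%. Pcdhga2 is in this count through 1 read in each siNC library and none in siSetdb1. Pcdhb14 had 0.2, 0.0606 and 0.206 FPKM in siSetdb1 and 0.233, 0.271 and 0.214 FPKM in siNC, so the closest libraries nearly met.

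Among genes that act on the clusters, the share that passed was near that of all genes. A list of 36 chromatin and architecture factors, such as CTCF, cohesin, DNA methyltransferases and SETDB1 with its partners, had 34 tested members, of which 3 rose, 2 fell and 29 did not pass (14.7%, against 15.1% of all genes tested). Their median log2 fold change was 0.17, against -0.02 over all genes tested. Setdb1, the target of the siRNA, is 1 of the 2 that fell, so the count holds a call that the design set. Besides Setdb1, the largest changes were a rise of Resf1, a partner of SETDB1 in silencing retroelements, with 45.1 ± 3.7 FPKM in siSetdb1 and 10.9 ± 4.6 FPKM in siNC (log2 fold change 2.04, limma adjusted p = 0.00638), and of Atf7ip, which stabilises SETDB1 (0.50, adjusted p = 0.00689). Resf1 had 5.62 FPKM in siNC replicate 1 against 13.0 and 14.2 in siNC replicates 2 and 3, and without replicate 1 its log2 fold change was 1.66. Without siSetdb1 replicate 2 or 3, 3 of the 34 passed, against 642 of 12643 and 937 of 12667 of all genes tested. Resf1 and Atf7ip passed without any 1 library. Of 25 genes for processing and partners of protocadherins, such as ADAM10, gamma-secretase and the WAVE complex, 21 were tested, 3 rose, 2 fell and 16 did not pass (23.8%, against 15.1% of all genes tested, and a median of 0.08). Abi2, a WAVE complex subunit, rose by 0.56 on the log2 scale. The cytoskeletal GTPase gene Rac1 rose by 0.31 and Psenen, a gamma-secretase subunit gene, fell by 0.37. These calls were lost without siSetdb1 replicate 1 or 2 (adjusted p = 0.0551 and 0.0556 for Abi2, 0.0973 and 0.0983 for Rac1, 0.086 and 0.0703 for Psenen, limma), and with either of these left out 0 of the list passed. The count was 1 of 21 without siSetdb1 replicate 3 or siNC replicate 2 and 3 of 21 without siNC replicate 3. Over all genes tested, 645 of 12627, 642 of 12643 and 937 of 12667 passed without siSetdb1 replicates 1, 2 and 3. Without siNC replicates 2 and 3, 1016 of 12637 and 1374 of 12586 of all genes passed. Rac1 was also lost without siSetdb1 replicate 3 and siNC replicates 2 and 3 (0.0727, 0.0588 and 0.0556), and Psenen without siSetdb1 replicate 3 and siNC replicate 2 (0.0564 and 0.0524).

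Among relatives outside the clusters, 3 genes rose. Of 27 listed non-clustered protocadherins and atypical cadherins, 16 had a value and 7 were tested, and 3 rose, 0 fell and 4 did not pass (42.9%, against 15.1% of all genes tested, and a median log2 fold change of 0.32). Whether they differ from the clustered genes was not tested. Fat2, an atypical cadherin of migrating epithelia, had 5.21 ± 0.26 FPKM in siSetdb1 and 2.11 ± 0.49 FPKM in siNC (SD, n = 3 each), with a log2 fold change of 1.01 (limma adjusted p = 0.00306) that passed without any 1 library. Cdhr2, a protocadherin of the intestinal brush border, had 7.15 ± 0.39 FPKM in siSetdb1 and 4.69 ± 0.79 FPKM in siNC (adjusted p = 0.0212). Pcdh1, an epithelial protocadherin that also lies among the chromosomal neighbours of the clusters, had 17.6 ± 0.4 and 13.8 ± 1.5 FPKM (adjusted p = 0.0375). The call of Cdhr2 was lost without siSetdb1 replicates 1, 2 or 3 (adjusted p = 0.0631, 0.0756 and 0.0672), and that of Pcdh1 without each of these 3 libraries (0.119, 0.107 and 0.108) and siNC replicates 2 and 3 (0.102 and 0.0839). Without any 1 of the siSetdb1 libraries 1 of the 7 passed, and without siNC replicate 2 or 3 there were 2. Of all genes tested, 645 of 12627, 642 of 12643 and 937 of 12667 passed without siSetdb1 replicates 1, 2 and 3. Without siNC replicates 2 and 3 it was 1016 of 12637 and 1374 of 12586 of all genes.

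The genes around the clusters changed in both directions. Within 1000000 bases of the outermost members lie 59 other genes with a value, of which 36 were tested, and 4 rose, 7 fell and 25 did not pass (30.6%, against 15.1% of all genes tested), with a median log2 fold change of -0.08. On the log2(FPKM + 1) scale, which compresses low values, the largest changes were those of Hbegf, Slc4a9 and Spry4. Hbegf, a ligand of the EGF receptor, had 13.6 ± 1.3 FPKM in siSetdb1 and 8.27 ± 0.87 in siNC (0.65, limma adjusted p = 0.00699). Slc4a9, an anion exchanger gene, had 0.129 ± 0.039 and 0.765 ± 0.222 FPKM (-0.64, adjusted p = 0.0149). Spry4, a feedback inhibitor of receptor tyrosine kinases, had 1.07 ± 0.26 and 0.365 ± 0.057 FPKM (0.59, adjusted p = 0.0182). On recovered reads the order differed. The limma-voom log2 fold change was 0.71 for Hbegf, and larger in size for Slc4a9 (-2.52), Spry4 (1.52), Arap3 (-1.07) and Taf7 (0.97). Hbegf and Spry4 lie on opposite sides of the clusters. Slc4a9 and Arap3, which also fell, reached the 0.5 FPKM minimum only in siNC libraries and Spry4 only in siSetdb1 libraries, so each had to differ to be tested. Among the 33 tested neighbours that reached it in libraries of both groups, 3 rose and 5 fell (24.2%, against 14.5% of all genes that did so). Slc4a9 and Arap3 were not tested without any 1 siNC library, nor Spry4 without any 1 siSetdb1 library. The call of Slc4a9 was lost without siSetdb1 replicate 1 or 2 (0.0505 and 0.0564) and that of Spry4 without siNC replicate 2 (0.0578), among the settings that leave out 1 library. That of Arap3 was lost without siSetdb1 replicate 1, 2 or 3 (limma adjusted p = 0.0878 to 0.118), and with no filter (0.066). The number of neighbours that passed was 2, 1 and 3 of 35 without siSetdb1 replicates 1, 2 and 3. Of all genes tested, 645 of 12627, 642 of 12643 and 937 of 12667 then passed. Without siNC replicates 1, 2 and 3 it was 8, 3 and 7 of 34 neighbours, against 2139 of 12620, 1016 of 12637 and 1374 of 12586 of all genes.

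A pair of neighbours was chosen after their values were seen, for its place beside the clusters. Taf7, a gene of the general transcription factor TFIID that lies between the beta and gamma clusters (37640491 to 37644204, minus strand), had 1.63, 1.74 and 2.34 FPKM in siSetdb1 and 0.92, 0.801 and 1.2 FPKM in siNC. The groups did not overlap, and the log2 fold change was 0.555 (limma adjusted p = 0.0278). Diaph1, a formin gene that follows the gamma cluster (37843601 to 37935476, minus strand), had 18.2, 17.8 and 18.7 FPKM in siSetdb1 and 23.7, 22.5 and 21.9 FPKM in siNC, again without overlap (-0.30, adjusted p = 0.0224). Both calls were lost without siSetdb1 replicates 1, 2 or 3 or siNC replicate 2, with adjusted p = 0.0601, 0.0732, 0.0764 and 0.0795 for Taf7 and 0.0955, 0.0927, 0.0617 and 0.0634 for Diaph1. With no filter they were lost too (0.0768 for Taf7 and 0.0558 for Diaph1), and Taf7 was lost with GC and length trends removed (0.0543).

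**Figure D4:**
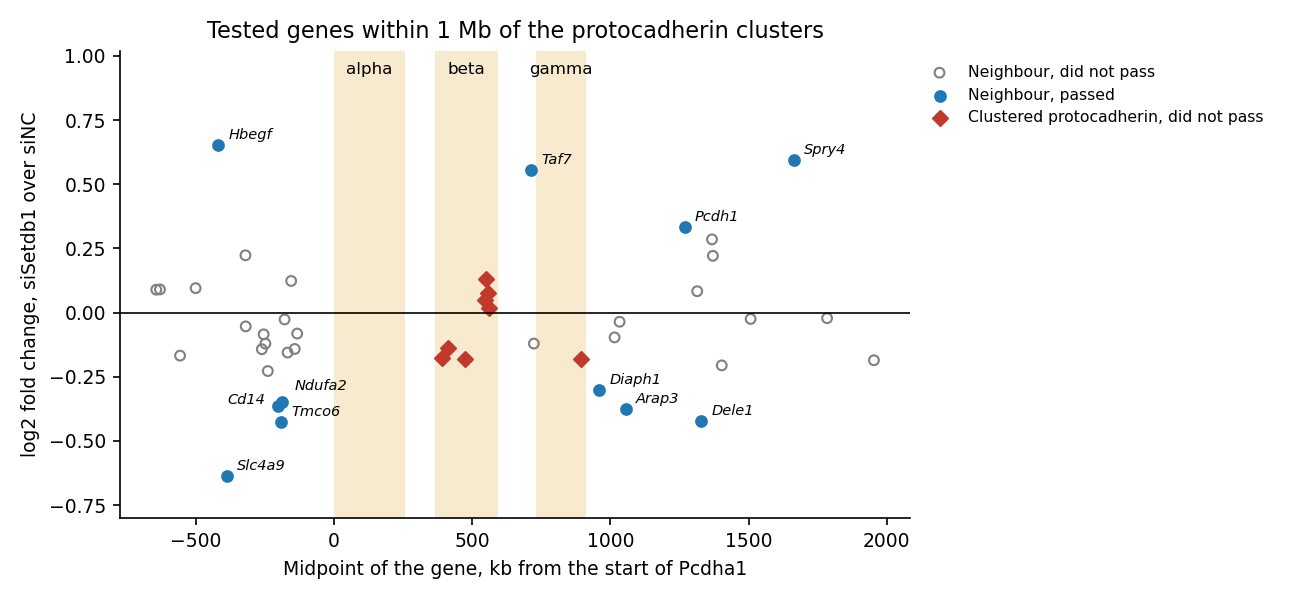
Log2 fold change of siSetdb1 over siNC for the tested genes within 1000000 bases of the clusters, against the distance of the gene's midpoint from the start of Pcdha1, with the clusters shaded. Filled circles passed the test, open circles did not, and red diamonds are the 8 tested clustered protocadherins, which lie between -0.18 and 0.13. The scale is log2(FPKM + 1), which compresses low values, so sizes do not compare directly between members and neighbours of higher level. On recovered reads (limma-voom) the members ran from -0.52 for Pcdhb9 to 0.17 for Pcdhb16.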

How the data were processed

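The deposited table holds 1 FPKM value per gene for each of the 6 samples, which the authors made before deposit. Its headers name no unit, and the unit was read from the values: with exon lengths from GENCODE M21, which uses GRCm38 (mm10), each value gave whole reads within 0.01 for 98.8% of 25372 genes, including all 42 members. Per the submitters' processing notes, HISAT2 2.0.4, Bowtie2 2.2.5, RSEM 1.2.12, DESeq2 1.4.5 and the build mm10 were used, with no role given. Per the labels' protocols, mRNA was selected with oligo(dT) beads and sequenced as single-end reads.

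Genes with at least 0.5 FPKM in 3 libraries were tested with limma 3.58.1 (R 4.3.3) after a log2(FPKM + 1) transform (intensity trend, robust prior, group as the only term, two-sided), with Benjamini-Hochberg adjustment over all genes tested and a threshold of 0.05. Fold changes are siSetdb1 over siNC, and the pseudocount understates those of low genes. The fit was tested on simulated data with the same dispersion for every gene and no library that stood apart. That check required only that large changes be found, so it does not cover small changes in low members. Alternatives were a pseudocount of 0.1, other filters, median-ratio scaling, limma-voom on recovered reads, a replicate block and leaving out each library. A variance trend on reads and the removal of trends in GC content and length were added after seeing the data. Members, lists and rules were chosen with earlier results of these data known. The rule for named genes took members that passed, the 5 with the highest mean in each cluster, the C-type genes, Setdb1, and in each other list the 3 largest changes among those that passed. Outside this rule, Pcdhb9 and Pcdhb18, the other tested members, and Pcdhb12, Pcdhb13, Pcdhb14, Pcdhb19, Pcdhb20, Pcdhb22, Pcdhgb1, Pcdhgb4, Pcdhga4, Pcdhga2 and the neighbour Arap3 were named after their values were seen. Reads per library limit precision, and intervals cover only the spread between samples.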

Additional observations from a re-analysis of the deposited data

How the results depend on the processing

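No tested beta or gamma member passed under any of the 14 alternatives, and the alpha genes were tested only with no filter. Pcdhb18 had a log2 fold change of -0.071 with GC and length trends removed, against 0.02. Leaving out 1 library gave -0.048 to 0.157 for Pcdhb17 and -0.103 to 0.081 for Pcdhb18, and the other tested members kept their direction. The beta and gamma sums moved by less than the spread between libraries, with ratios from 0.913 to 1.03 for beta and from 0.869 to 0.938 for gamma when 1 library was left out. The count of all genes that passed, 1945, was 890 with no filter, 1015 with the replicate block and 642 to 2139 without 1 library (645, 642 and 937 without siSetdb1 replicates 1, 2 and 3 and 1016 without siNC replicate 2). With no filter 1 of 24 genes of processing and partners, 1 of 16 other protocadherins and 5 of 59 neighbours passed (3.5% of all genes). Leaving out 1 library gave 3 to 6 of 34 regulators and 0 to 7 of 21 genes of processing and partners. It gave 1 to 4 of 7 other protocadherins and 1 to 8 of 34 or 35 neighbours, beside the 642 to 2139 of all genes. Under the replicate block 1 of 21 genes of processing and partners and 5 of 36 neighbours passed, beside 1015 of all 12846 genes. With this block the calls of Spry4 (limma adjusted p = 0.0515), Diaph1 (0.0676), Rac1 (0.0644), Psenen (0.0574), Pcdh1 (0.0753) and Arap3 (0.0892) were lost. Deviations from the group means had correlations of -0.157, 0.167 and -0.172 between same-numbered samples (numbers 1, 2 and 3). Between samples of different number they ran from -0.204 to 0.283. With 3 samples per group, deviations within a group must cancel, so these values cannot decide whether the numbers pair the samples. The causes of these shifts were not tested. Depth limits what could be seen in low members, since 15 of 42 had fewer than 10 reads in all.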
